A study of Mus musculus with 14 samples.

Results

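Border associated macrophages are represented here by 8 genes, Mrc1, Cd163, Lyve1, Ms4a7, F13a1, Pf4, Stab1 and Folr2, which mark perivascular and meningeal macrophages. They were taken by symbol from a table of 46904 genes, all 8 were found, and all 8 were among the 46102 genes tested. The libraries were made from polyA RNA of whole brain hemispheres of 12-week-old mice on a C57BL/6J background, 48 h after a 20 min occlusion of the left middle cerebral artery (MCAO) with a silicon-coated filament. Cort-/- mice are deficient in the neuropeptide gene Cort, with no restriction to a cell type, and Cort+/+ mice are their wild-type counterparts. Each genotype gave contralateral hemispheres (CL, n = 3 per genotype), which the labels call untreated although they come from operated animals, and ischemic hemispheres (MCAO, n = 3 for Cort+/+ and n = 5 for Cort-/-). The labels do not say which CL and MCAO libraries share an animal, and no sham-operated group is among the 14 libraries analysed here. The paper names 5 MCAO replicates, but the Cort+/+ MCAO libraries here are only those numbered 2, 3 and 4. It also says that, where replicates varied widely, only those that grouped clearly were kept. Why the other Cort+/+ MCAO numbers are absent is not stated.

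Border associated macrophages line the brain rather than its parenchyma: they lie in the meninges, in the choroid plexus and along penetrating vessels, where they sample fluid and take up proteins, lipids and debris. They depend on the receptor Csf1r, as microglia do, but carry scavenger and endocytic receptors that resting microglia express little. Macrophages that enter injured tissue from the blood can switch on several of the same genes, so none of the 8 is restricted to 1 cell type in an ischemic hemisphere.

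Reads recovered from the deposited values numbered 25991112 to 43034545 per library, with a median of 36028746.5. Cort, the deleted gene, had 64 to 139 reads in the 3 Cort+/+ CL libraries and 81 to 108 in the 3 Cort+/+ MCAO libraries, against 0 to 1 read in Cort-/- CL and 0 to 4 reads in Cort-/- MCAO, so every library matched its genotype label. Defining markers of brain tissue were present, with neuronal markers (Rbfox3, Snap25, Syt1, Slc17a7 and Gad1) summing to means of 1572 to 1832 RPKM (reads scaled to the length of the gene and the depth of the library) in the 4 groups. Choroid plexus markers (7 genes led by Ttr) summed to 295 to 502 RPKM and meningeal fibroblast markers (8 genes including Dcn, Lum and Col1a1) to 31.3 to 62.3 RPKM, so border tissue was in the dissected hemispheres. In such bulk tissue a lower value from fewer cells of a type cannot be told apart from one due to less RNA per cell.

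All 8 genes were low. Over the 14 libraries the means ran from 4.41 RPKM for Stab1 through 1.03 for F13a1, 0.858 for Mrc1, 0.812 for Pf4, 0.443 for Folr2, 0.356 for Lyve1 and 0.326 for Cd163 to 0.265 for Ms4a7. Stab1 was the highest of the 8 in 14 of 14 libraries and alone made up 36.7% to 66.0% of their summed RPKM. The next places were not separated: F13a1 was above Mrc1 in 7 of 14 libraries and Mrc1 above Pf4 in 9 of 14. Pf4 was above Folr2 in 13 of 14 libraries, while Folr2 was above Lyve1 in 9, Lyve1 above Cd163 in 11 and Cd163 above Ms4a7 in 10 of 14. These levels rest on 458 to 2687 reads per library for Stab1, 49 to 453 for F13a1 and 77 to 413 for Mrc1, but on only 6 to 69 for Pf4, 6 to 58 for Ms4a7, 4 to 66 for Folr2, 20 to 77 for Lyve1 and 23 to 104 for Cd163. For the last 5 genes a single library's value is therefore imprecise from counting alone.

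The genes lie apart in the genome, on 7 chromosomes (GRCm39). Mrc1 is at chr2:14234151-14336926, Pf4 at chr5:90918479-90922110, Cd163 at chr6:124281606-124307560 and F13a1 at chr13:37051152-37234277. Stab1 is at chr14:30860970-30890598 and Ms4a7 at chr19:11298403-11313510. Folr2 (chr7:101489195-101506401) and Lyve1 (chr7:110448585-110462460) share a chromosome. The bases just upstream of 4 of them are shown, because Mrc1, F13a1 and Cd163 varied together between libraries and Stab1 was the gene that passed the test between hemispheres. The sequences are RefSeq promoter windows, placed on GRCm39 by their single exact match and ended where the annotated gene begins, each read 5′ to 3′ on the gene's strand. Capitals mark GAGGAA on either strand (TTCCTC when it lies on the other strand), the core of the box bound by PU.1, a transcription factor of myeloid cells.
Mrc1 (chr2:14233975-14234150, plus strand): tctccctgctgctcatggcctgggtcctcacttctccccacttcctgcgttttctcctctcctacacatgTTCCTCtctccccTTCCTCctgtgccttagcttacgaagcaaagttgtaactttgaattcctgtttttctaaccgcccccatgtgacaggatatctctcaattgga
F13a1 (chr13:37234278-37234470, minus strand): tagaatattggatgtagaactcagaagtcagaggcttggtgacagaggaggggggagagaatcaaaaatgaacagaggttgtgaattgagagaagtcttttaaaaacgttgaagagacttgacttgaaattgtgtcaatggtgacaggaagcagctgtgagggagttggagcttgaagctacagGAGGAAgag
Cd163 (chr6:124281360-124281605, plus strand): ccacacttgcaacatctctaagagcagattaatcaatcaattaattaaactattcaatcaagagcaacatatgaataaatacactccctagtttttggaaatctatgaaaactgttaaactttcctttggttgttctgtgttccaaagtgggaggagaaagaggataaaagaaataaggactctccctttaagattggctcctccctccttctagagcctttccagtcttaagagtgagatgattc
Stab1 (chr14:30890599-30890848, minus strand): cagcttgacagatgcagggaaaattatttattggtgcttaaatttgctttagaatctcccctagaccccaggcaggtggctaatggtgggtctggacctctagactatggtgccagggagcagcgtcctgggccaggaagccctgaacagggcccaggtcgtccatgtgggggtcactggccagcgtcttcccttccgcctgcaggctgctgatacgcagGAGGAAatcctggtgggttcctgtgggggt
In the stretches printed, Mrc1 held 2 matches and F13a1 and Stab1 1 each, while Cd163 held none. Of 32851 windows of 250 bases before a RefSeq start, 23.3% held GAGGAA on either strand, as did 4 of the 10 windows of the members (Lyve1 had none in the table). The half-site of MAF factors, TGCTGA, was in 3 of the 10 against 16.1% of all windows, and TGANTCA, the AP-1 site, in 2 against 6.75%. TGCTGA and TGANTCA can overlap through their shared TGA, and a match is a description of the sequence only.

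**Figure D1:**
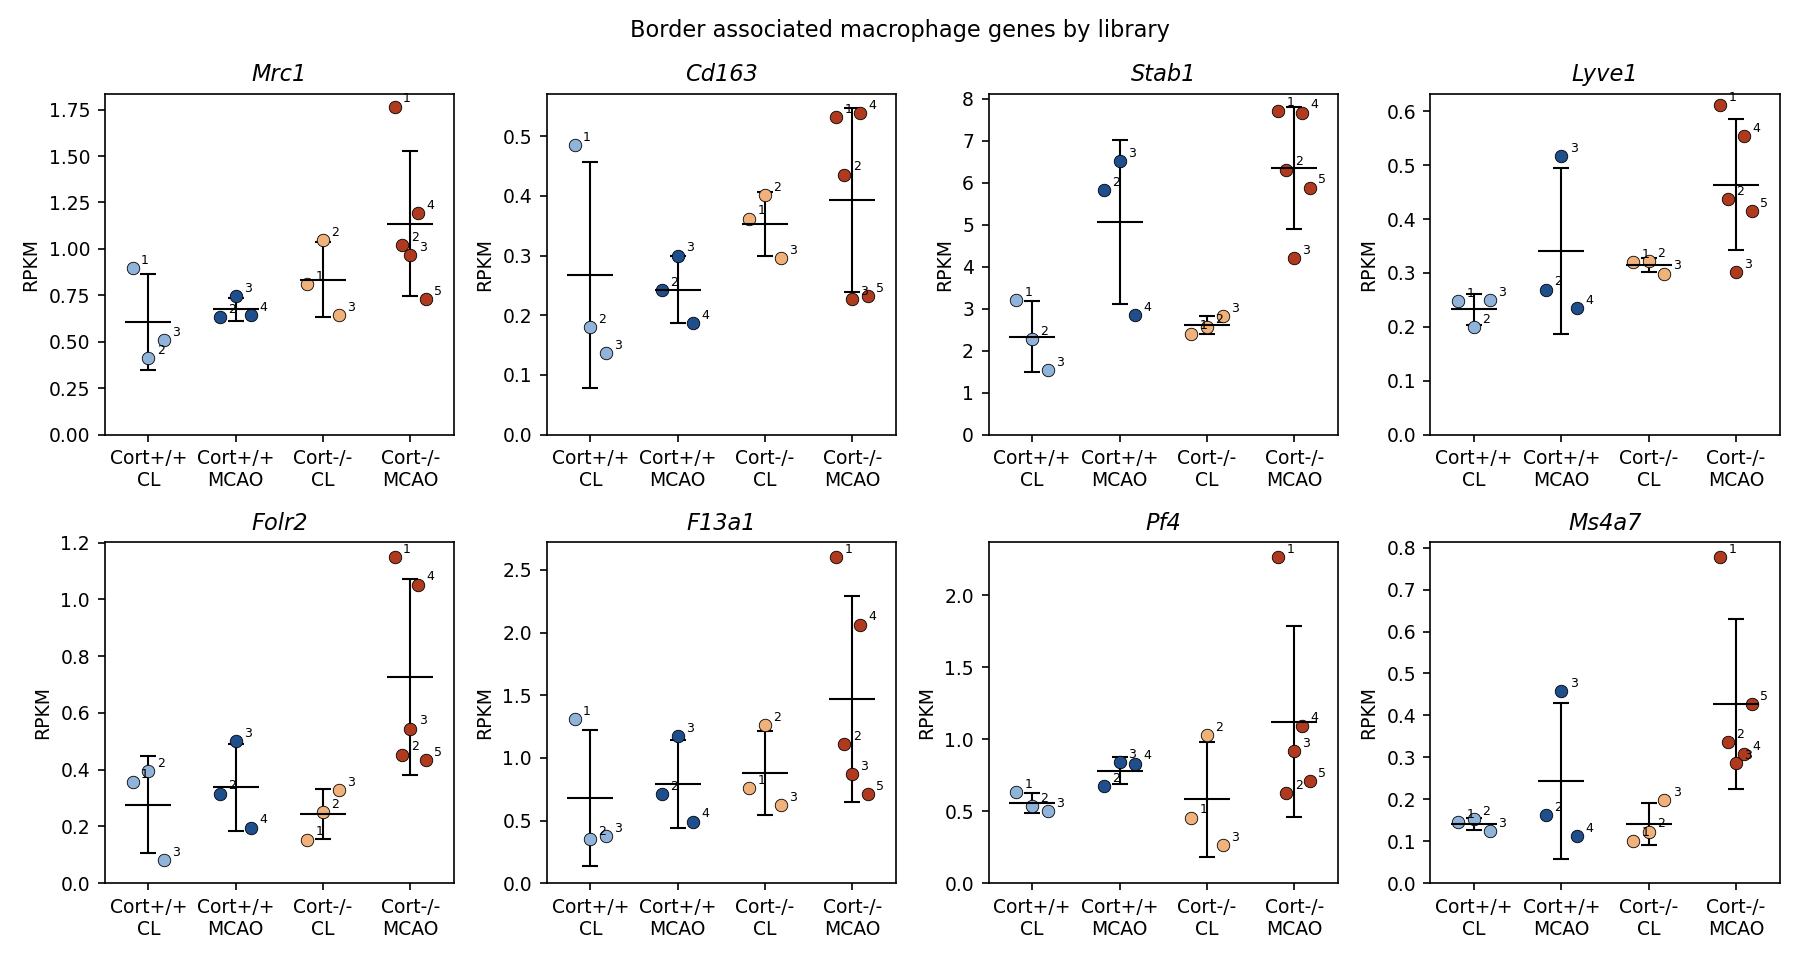
RPKM of the 8 genes (y axis, from 0) in the 4 groups (x axis). Each point is 1 library with its replicate number, the bar is the group mean and the whiskers are 1 SD. Library 1 of the Cort-/- MCAO group is the highest of all 14 for 7 of the 8 genes, and only Stab1, Ms4a7 and Folr2 have all 5 Cort-/- MCAO libraries above all 3 Cort-/- CL libraries.

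Among the scavenger receptors, Stab1 (stabilin-1, which clears modified lipoproteins and matrix fragments) was higher in ischemic hemispheres. In Cort+/+ mice it was 3.20, 2.27 and 1.53 RPKM in CL libraries 1, 2 and 3 and 5.82, 6.51 and 2.84 RPKM in MCAO libraries 2, 3 and 4. The groups overlapped through MCAO library 4, which lay below the highest CL library. In Cort-/- mice it was 2.41, 2.57 and 2.83 RPKM in the 3 CL libraries and 7.72, 6.31, 4.21, 7.67 and 5.89 RPKM in the 5 MCAO libraries, with no overlap. The means were 2.34 ± 0.837 against 5.06 ± 1.95 RPKM in Cort+/+ (SD, n = 3 and 3) and 2.60 ± 0.213 against 6.36 ± 1.45 RPKM in Cort-/- (SD, n = 3 and 5).

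Mrc1 (the mannose receptor CD206, which takes up glycoproteins) overlapped between the hemispheres in both genotypes. Its RPKM was 0.897, 0.414 and 0.509 in Cort+/+ CL and 0.631, 0.748 and 0.643 in Cort+/+ MCAO, so the MCAO libraries lay inside the CL range. In Cort-/- it was 0.810, 1.05 and 0.644 in CL and 1.77, 1.02, 0.965, 1.19 and 0.728 in MCAO, where 2 of 5 MCAO libraries exceeded every CL library. Cd163 (the receptor for haemoglobin bound to haptoglobin) spread more within groups than between them. It was 0.485, 0.180 and 0.137 RPKM in Cort+/+ CL, 0.242, 0.300 and 0.187 in Cort+/+ MCAO, and 0.362, 0.402 and 0.296 in Cort-/- CL. In Cort-/- MCAO, libraries 1, 2 and 4 had 0.533, 0.436 and 0.539 RPKM, above all 3 CL libraries of that genotype, and libraries 3 and 5 had 0.228 and 0.233 RPKM, below all 3.

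The receptors for small and matrix ligands were Folr2 and Lyve1. Folr2 (folate receptor beta) was 0.355, 0.394 and 0.0812 RPKM in Cort+/+ CL and 0.316, 0.501 and 0.196 RPKM in Cort+/+ MCAO. Those groups overlapped. In Cort-/- it was 0.154, 0.251 and 0.328 RPKM in CL and 1.15, 0.453, 0.545, 1.05 and 0.435 RPKM in MCAO, with no overlap. Lyve1 (a hyaluronan receptor that lymphatic endothelium also carries) was 0.248, 0.200 and 0.250 RPKM in Cort+/+ CL and 0.321, 0.322 and 0.299 in Cort-/- CL, which did not overlap. In MCAO it was 0.269, 0.516 and 0.234 RPKM in Cort+/+ and 0.612, 0.438, 0.301, 0.555 and 0.415 in Cort-/-, which did.

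The secreted products were F13a1 and Pf4. F13a1 (the A chain of coagulation factor XIII, a transglutaminase that cross-links fibrin) was 1.31, 0.354 and 0.375 RPKM in Cort+/+ CL and 0.708, 1.17 and 0.492 in Cort+/+ MCAO. In Cort-/- it was 0.761, 1.26 and 0.625 RPKM in CL and 2.60, 1.11, 0.869, 2.06 and 0.710 in MCAO, so the hemispheres overlapped in both genotypes. Pf4 (the chemokine CXCL4, best known from platelet granules) was 0.630, 0.537 and 0.498 RPKM in Cort+/+ CL and 0.675, 0.840 and 0.831 in Cort+/+ MCAO, without overlap. Behind that gap stood only 13 to 16 reads in CL and 17 to 24 in MCAO. In Cort-/- Pf4 overlapped, at 0.456, 1.03 and 0.265 RPKM in CL and 2.26, 0.625, 0.919, 1.09 and 0.708 in MCAO.

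Ms4a7, a membrane protein of macrophages whose ligand is not known, was near its lowest level in 8 libraries and higher in 6. It was 0.145, 0.152 and 0.125 RPKM in Cort+/+ CL, 0.102, 0.123 and 0.198 in Cort-/- CL and 0.162, 0.457 and 0.113 in Cort+/+ MCAO. All 5 Cort-/- MCAO libraries, at 0.778, 0.336, 0.287, 0.307 and 0.426 RPKM, exceeded every CL library of either genotype. They rest on 13 to 58 reads, against 6 to 11 reads in CL.

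The first comparison asked how the 8 genes differed between the ischemic and the contralateral hemisphere. Stab1 rose, and no other member passed the test in any comparison. With both genotypes averaged, Stab1 was 2.21-fold higher in MCAO on the log2(RPKM + 0.1) scale (log2 difference 1.14, SE 0.21, limma, adjusted p = 0.00949 over all genes tested). That made 1 of 8 members called, where 3.43% of all genes were called, 2.52% were called higher, and 6.82% of the 9810 genes with a mean RPKM in the members' range were called. In Cort-/- alone it was 2.34-fold higher (log2 difference 1.23, SE 0.28, 95% interval 0.62 to 1.83, limma adjusted p = 0.0460), again 1 of 8, against 1.72% of all genes and 3.81% of those in the members' range. In Cort+/+ alone the log2 difference was 1.06 (SE 0.31, 95% interval 0.38 to 1.73, limma adjusted p = 0.331), and 0 of 8 members were called by limma where 0.0108% of all genes were. Without an adjustment 1 of 8 had p under 0.05 in Cort+/+, against 7.87% of all genes, and limma voom on the recovered reads, chosen after seeing the data, also called 0 of 8.

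The other 7 members had log2 differences above 0 in each of these comparisons without passing the test. With both genotypes averaged, Folr2 had a log2 difference of 0.74 (95% interval 0.09 to 1.40), Ms4a7 0.73 (0.19 to 1.28) and Pf4 0.64 (0.03 to 1.26), with limma adjusted p-values of 0.255, 0.159 and 0.307. F13a1 had 0.45, Lyve1 0.39 and Mrc1 0.28. Cd163 had 0.04, with an interval from -0.49 to 0.56, and its sign turned under quantile normalization (-0.024 over both genotypes and -0.055 in Cort+/+). In Cort-/-, Folr2 had a log2 difference of 1.20 (SE 0.40), Ms4a7 1.08 (SE 0.33) and Pf4 0.86 (SE 0.38), with limma adjusted p-values of 0.185, 0.144 and 0.359. Unadjusted p-values were under 0.05 for 5 of 8 members over both genotypes and for 4 of 8 in Cort-/-, against 14.9% and 12.7% of all genes. The median of the 8 log2 differences was 0.34 in Cort+/+, 0.72 in Cort-/- and 0.55 in both, beside medians of 0.01 in Cort+/+ and -0.01 in Cort-/- over genes in the members' range. Single libraries moved these medians: without Cort+/+ MCAO library 3 that of Cort+/+ was 0.063, without Cort+/+ CL library 3 it was 0.23 and without Cort+/+ MCAO library 4 it was 0.53. That of Cort-/- was 0.44 without Cort-/- CL library 3 and 0.46 without Cort-/- MCAO library 1, and ran up to 0.93. All 8 were above 0 in each, as were 49.6%, 50.2% and 50% of all genes.

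The libraries were also compared by overlap. In Cort-/-, every MCAO library lay above every CL library for 3 of 8 members (Stab1, Ms4a7 and Folr2), as it did for 4.85% of all genes. In Cort+/+ that held for 1 of 8 (Pf4), against 5.73% of all genes. The Stab1 call in Cort-/- was close to the threshold: leaving out any 1 of Cort-/- CL library 1, 2 or 3, Cort-/- MCAO library 1, 2, 4 or 5, Cort+/+ CL library 2 or Cort+/+ MCAO library 2 brought the count from 1 to 0. Over these 9 fits the log2 difference ran from 1.15 to 1.29 and the limma adjusted p from 0.0595 to 0.173. The call over both genotypes held in 14 of 14 such fits, with limma adjusted p-values from 0.00161 to 0.0316. With the replicate number within each genotype as a block, Stab1 was not called over both genotypes (log2 difference 1.41, limma adjusted p = 0.133). Nor was it called in Cort-/- with that block, which called 0 of all 46102 genes.

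**Figure D2:**
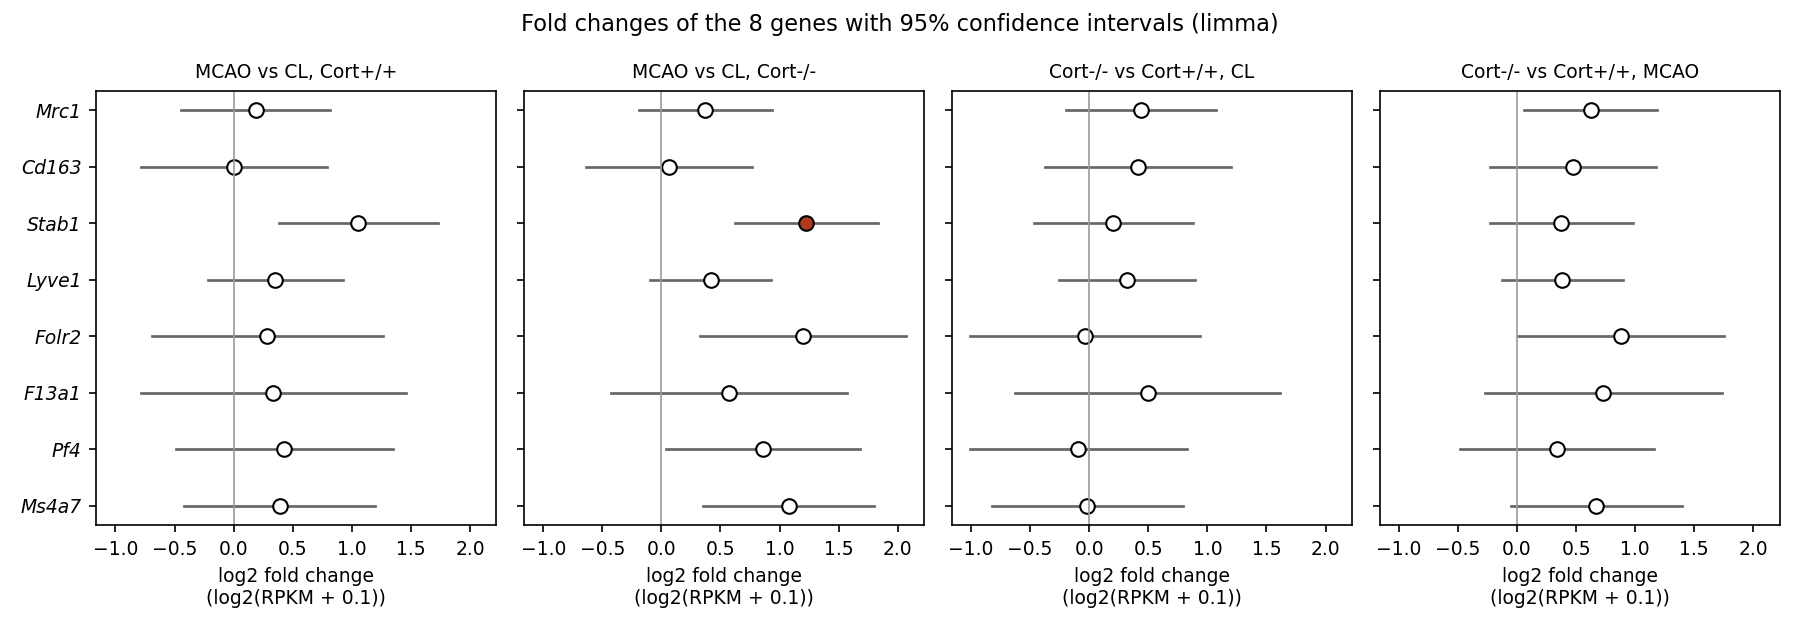
Log2 fold changes of the 8 genes (x axis, on log2(RPKM + 0.1)) in 4 comparisons, with 95% confidence intervals from limma. The filled point is the only one called at an adjusted p under 0.05, Stab1 in Cort-/- mice at 1.23. Intervals of Mrc1 and Cd163 cover 0 in both comparisons between hemispheres.

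The next comparison asked whether the genes differed between genotypes. In the contralateral hemisphere 0 of 8 were called by limma (0.0152% of all genes were), and 0 of 8 had an unadjusted p under 0.05, against 3.91% of all genes. Log2 differences of Cort-/- from Cort+/+ ran from -0.09 for Pf4 to 0.50 for F13a1, and 5 of 8 were above 0, as were 50.3% of all genes. Rescaled to TPM, Ms4a7 (0.014) and Folr2 (0.044) also lay above 0. Lyve1, whose groups did not overlap there, had a log2 difference of 0.32 (SE 0.26, limma adjusted p = 1.0) from 28 to 32 reads in Cort-/- against 20 to 27 in Cort+/+. Every Cort-/- CL library lay above every Cort+/+ CL library for that 1 of 8 members and for 3.9% of all genes.

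In the ischemic hemisphere all 8 members had a higher fitted level in Cort-/-, as did 49.2% of all genes, but 0 of 8 passed the limma test (0.0174% of all genes did). Log2 differences ran from 0.34 for Pf4 to 0.88 for Folr2 (95% interval 0.01 to 1.75), with 0.73 for F13a1, 0.67 for Ms4a7 and 0.62 for Mrc1 (0.06 to 1.19). The median was 0.55, beside -0.01 over the genes of the same expression range. Unadjusted p-values were under 0.05 for 2 of 8 (Mrc1 at 0.0332 and Folr2 at 0.0481, each with a limma adjusted p of 1.0), against 3.82% of all genes. The groups overlapped for all 8 members, while 0.861% of all genes had every Cort-/- MCAO library above every Cort+/+ one. For Cd163 the log2 difference was 0.48 (95% interval -0.23 to 1.18). The paper, by qPCR at 48 h after MCAO, reports the other direction, a significantly lower CD163 expression in Cort-/- mice. The cause of that disagreement was not tested.

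The size of the difference in the ischemic hemisphere leaned on single libraries. With 1 library left out at a time, the median ran from 0.39 to 0.67 and all 8 members stayed above 0. Library 1 of the Cort-/- MCAO group was among the 3 highest of 14 libraries for 8 of 8 members and the highest for 7, and library 4 of that group was among the 3 highest for 7. Without library 1 the median log2 difference between genotypes in MCAO was 0.42, with 0.46 for Mrc1, 0.71 for Folr2 and 0.065 for Pf4, and 0 of 8 were called. Without Cort+/+ MCAO library 4, whose Stab1 was the lowest of the 8 MCAO libraries, the median was 0.39, with 0.014 for Stab1. Library 1 of the Cort-/- MCAO group also had the highest sum of meningeal fibroblast markers, 62.3 RPKM against 31.3 to 51.3 in the other 13, and the highest sum of microglial markers, 86.0 RPKM. The part of these cells in the difference was not tested.

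Whether the change between hemispheres differed between genotypes was tested as an interaction. Its log2 value was above 0 for 8 of 8 members, as for 48.2% of all genes, with a median of 0.21. That median turned without Cort+/+ CL library 1 (-0.024) and was up to 0.46 with another library left out. Without Cort+/+ CL library 1, Mrc1, Cd163, F13a1 and Stab1 had values below 0. The largest was 0.91 for Folr2 (SE 0.60, limma adjusted p = 1.0), followed by 0.69 for Ms4a7 (SE 0.50). Stab1 had 0.17, with a 95% interval from -0.73 to 1.08. Limma called 0 of 8 members, against 0.00217% of all genes, and 0 of 8 had an unadjusted p under 0.05, as 3.31% of all genes did.

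The 8 genes did not vary as 1 unit. As a description, Pearson r of log2(RPKM + 0.1) was computed for the 28 pairs over the 14 libraries, which share their preparation and differ in depth. With group means subtracted, Mrc1 and F13a1 had r = 0.93, F13a1 and Cd163 0.93, and Mrc1 and Cd163 0.83. Mrc1 and Pf4 had 0.78, Stab1 and Cd163 0.77, Stab1 and Folr2 0.76, and Lyve1 and Ms4a7 0.74. At the low end Stab1 and Pf4 had 0.18, and Ms4a7 had 0.32 with Mrc1 and 0.30 with Cd163 and with Pf4.

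**Figure D3:**
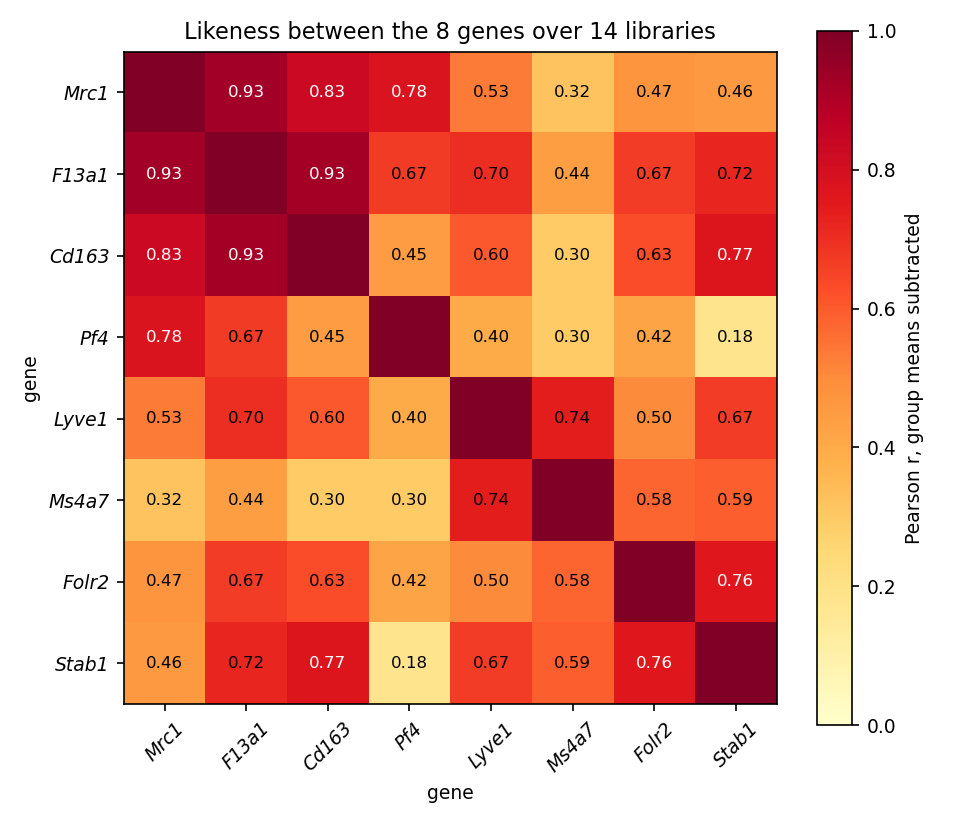
Pearson r between the 8 genes over 14 libraries (both axes list the genes, colour gives r from 0 to 1), after group means were subtracted from log2(RPKM + 0.1). The block of Mrc1, F13a1 and Cd163 holds values of 0.83 to 0.93, and the lowest cell is Stab1 with Pf4 at 0.18.

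Genes with the most similar pattern were sought among 15061 further genes whose mean reached 1 RPKM. For Stab1 they were Plcg2 (a phospholipase C of myeloid cells and lymphocytes, r = 0.98), Csf1r (0.98) and Hk3 (a hexokinase of myeloid cells, 0.98). With group means subtracted these were 0.93, 0.92 and 0.91. Csf1r itself was 18.3 ± 1.89 RPKM in Cort+/+ CL, 28.5 ± 5.40 in Cort+/+ MCAO, 20.0 ± 0.546 in Cort-/- CL and 32.0 ± 4.05 in Cort-/- MCAO (SD, n = 3, 3, 3 and 5). Stab1 amounted to 9.18% to 15.7% of the Csf1r RPKM in the 6 CL libraries and to 12.8% to 22.9% in the 8 MCAO libraries. Mrc1 amounted to 2.33% to 5.13% of it in CL and 2.01% to 4.89% in MCAO, and Cd163 to 0.822% to 2.38% in CL and 0.692% to 1.61% in MCAO.

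For Mrc1 the most similar genes were Fmod (fibromodulin, a collagen-binding proteoglycan, r = 0.94), Plac9 (0.92) and Colec12 (a scavenger receptor of the collectin family, 0.92). Fmod and Colec12 returned for F13a1 (0.93 and 0.92), with Fbxo6 (0.93) beside them. With group means subtracted, Fmod had 0.97 with Mrc1 and 0.91 with F13a1. Fmod was 5.60 ± 1.61 RPKM in Cort+/+ CL, 5.62 ± 0.716 in Cort+/+ MCAO, 6.02 ± 1.05 in Cort-/- CL and 7.70 ± 2.46 in Cort-/- MCAO (SD), and its log2 difference between hemispheres over both genotypes was 0.17 (SE 0.18). Its highest library was Cort-/- MCAO library 1 at 11.4 RPKM, as for Mrc1 and F13a1. Fbxo6 lies on the chromosome of the deleted Cort gene, and its likeness was not examined further.

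The remaining members resembled genes of mixed kinds. Cd163 came closest to Brf1 (r = 0.91), Ric8a (0.90) and Pcif1 (0.89), and Lyve1 to Gm56768 (0.95), Gpaa1 (0.95) and Thbs1 (0.94), the matrix glycoprotein thrombospondin-1. Ms4a7 came closest to Bax (0.93), Creb3l1 (0.93) and the proteoglycan gene Bgn (0.93), but over the 6 CL libraries alone its r with Bgn was 0.05. Pf4 came closest to Magoh (0.91), Lbhd1 (0.91) and Rnaseh2b (0.88), and Folr2 to Akip1 (0.94), Uaca (0.92) and Nfkb1 (0.90), a subunit of the transcription factor NF-κB. These are the top 3 of many genes over few libraries, and they are given as likeness only.

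**Figure D4:**
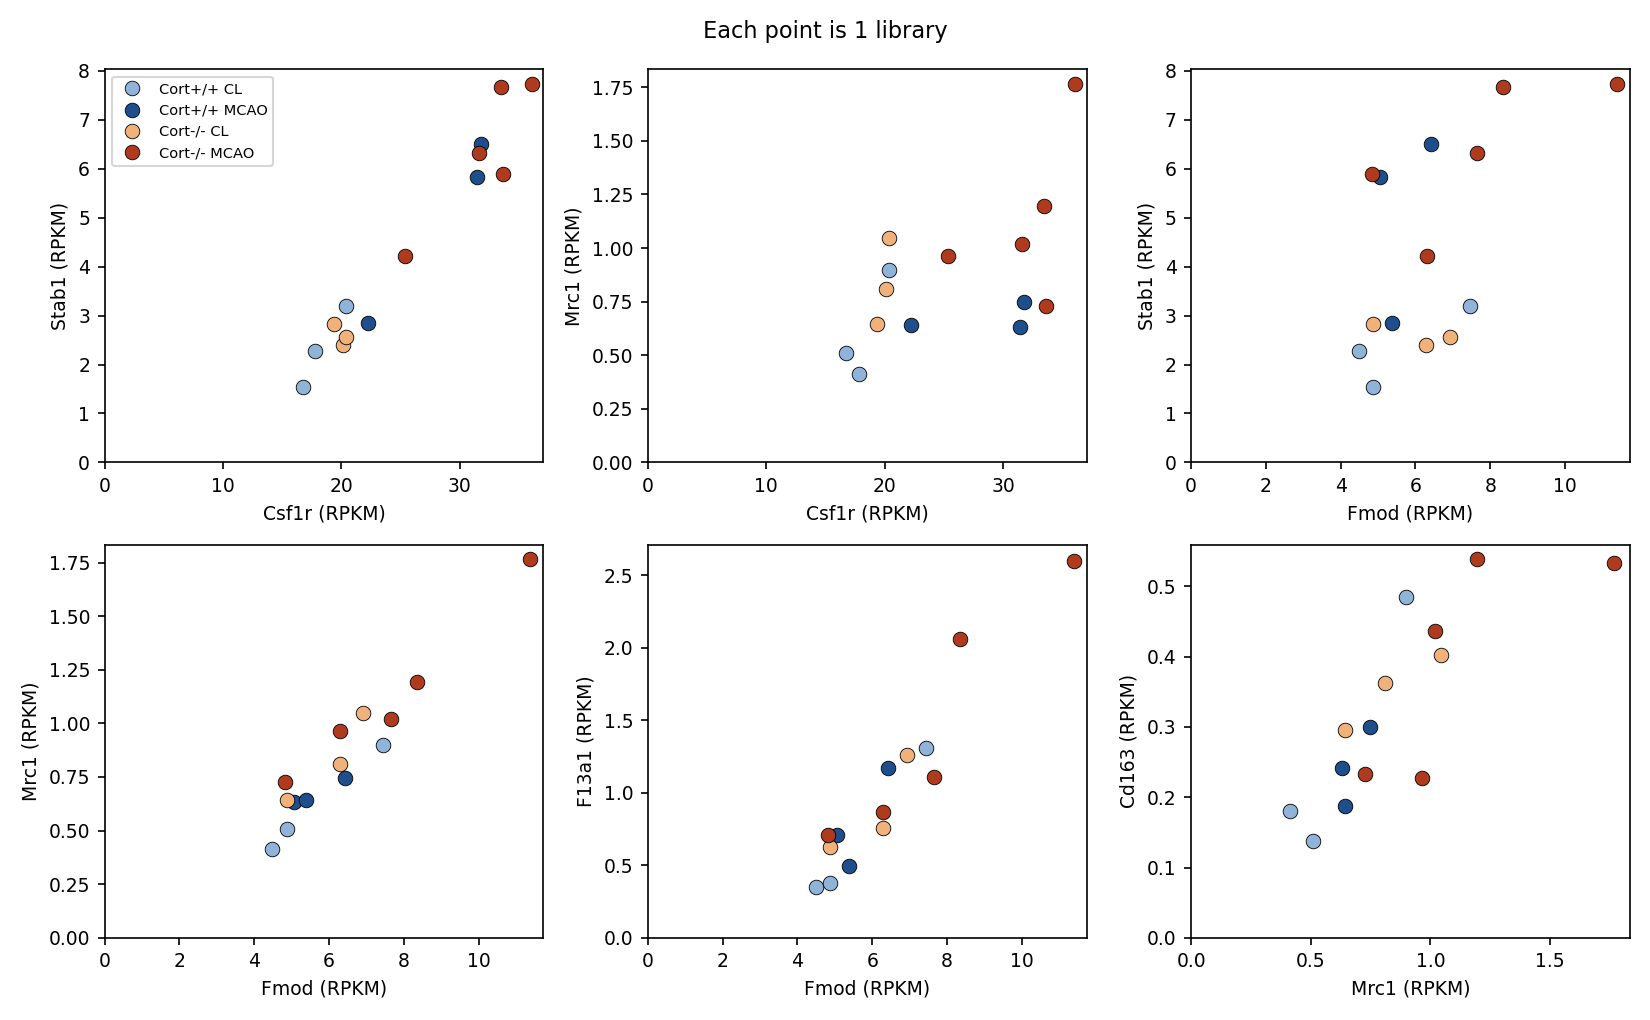
RPKM of pairs of genes, with 1 point per library coloured by group (both axes in RPKM, from 0). Stab1 rises with Csf1r across hemispheres (r = 0.98), whereas Mrc1 and F13a1 follow Fmod over the 14 libraries (r = 0.94 and 0.93) and Cd163 follows Mrc1 (r = 0.84).

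Markers of other cells that the tissue can hold moved with some of these genes. Over both genotypes 3.43% of all genes were called and 2.52% were called higher, the shares to set beside the counts that follow. The microglial list (9 genes including P2ry12 and Tmem119) summed to 39.8 to 48.4 RPKM in CL and 56.5 to 86.0 in MCAO, and 6 of 9 rose over both genotypes, with a median log2 difference of 0.56. The monocyte list (8 genes including Ly6c2, Ccr2 and Plac8) summed to 7.47 to 11.7 RPKM in CL and 10.8 to 26.4 in MCAO. Of it 2 of 8 rose over both genotypes, Plac8 and Fn1, and the median was 0.93. The meningeal fibroblast list summed to 31.3 to 40.1 RPKM in CL and 35.3 to 62.3 in MCAO, where 2 of 8 rose (Dcn and Aldh1a2) and the median was 0.32. With group means subtracted, log2 of that sum had r = 0.93 with F13a1, 0.91 with Mrc1 and 0.87 with Cd163, and 0.71 with Pf4, 0.70 with Stab1, 0.69 with Folr2, 0.67 with Lyve1 and 0.50 with Ms4a7. The monocyte sum had r = 0.89 with Lyve1, 0.83 with Stab1, 0.80 with F13a1, 0.74 with Folr2, 0.73 with Ms4a7, 0.72 with Cd163, 0.58 with Mrc1 and 0.46 with Pf4. That sum includes Fn1, Arg1 and Thbs1, which are not restricted to monocytes. Thbs1 alone had r = 0.93 with Lyve1 after group means were subtracted. The part of cell numbers in the values of the 8 genes was not tested.

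**Figure D5:**
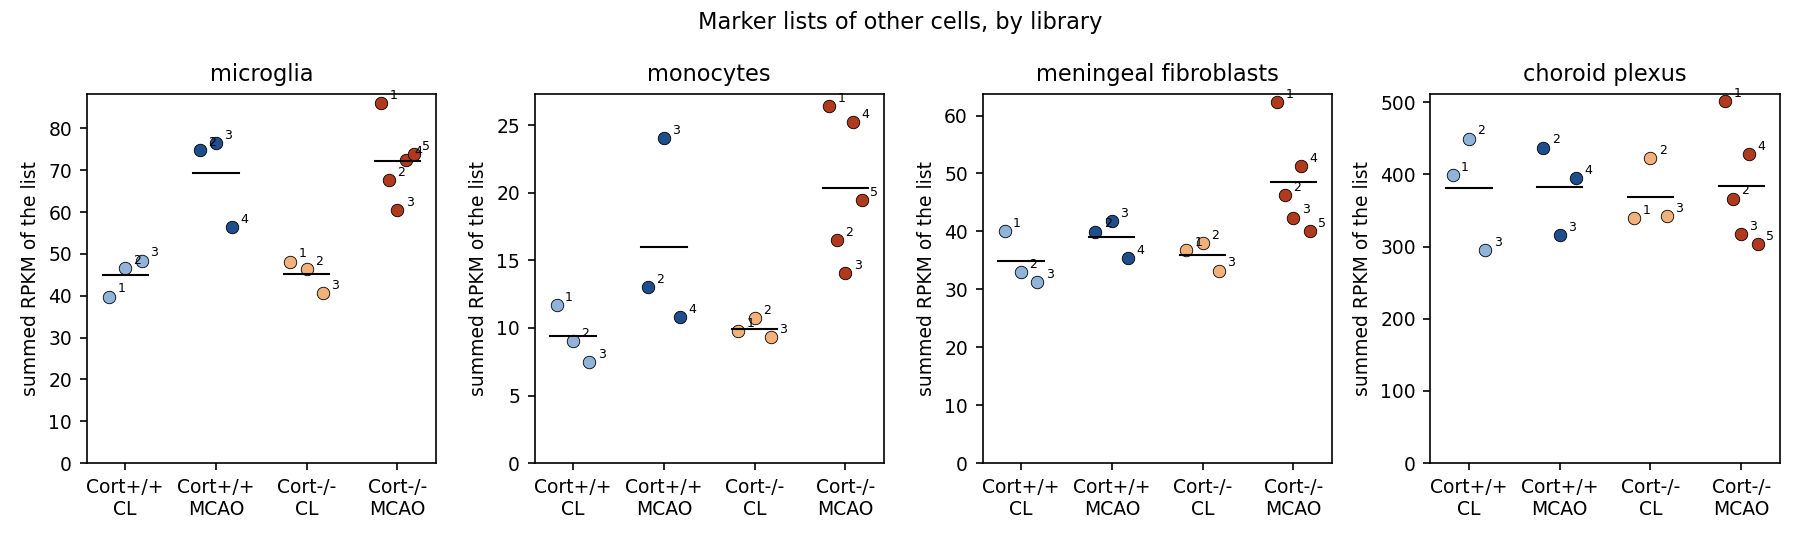
Summed RPKM of 4 marker lists (y axis, from 0) by group (x axis), with 1 point per library, its replicate number and the group mean as a bar. Microglial sums are 39.8 to 48.4 RPKM in CL and 56.5 to 86.0 in MCAO, and Cort-/- MCAO library 1 is the highest for all 4 lists.

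Some members also mark other cells. The 8 platelet genes summed to 74.8 to 95.5 RPKM, nearly all of it from Gp1bb. Those other than Gp1bb (7 genes including Itga2b, Gp9 and Ppbp) summed to 1.41 to 1.83 RPKM in CL and 1.70 to 2.25 in MCAO. Gp1bb stood at 72.8 to 94.1 RPKM in every library. None of the 8 platelet genes passed the test between hemispheres, and the median log2 difference over both genotypes was 0.02. The 5 lymphatic endothelial genes summed to 16.4 to 23.7 RPKM, above Lyve1 in every library, and Reln, Prox1 and Pdpn, which neurons or glia also express, gave most of it. Of the 5, 1 rose over both genotypes, Pdpn (log2 difference 0.71). Flt4 had group means of 0.509 to 0.781 RPKM. Ccl21a, which shares that endothelium with Lyve1, was at 0 to 0.177 RPKM. Sinusoidal endothelial genes, a site of Stab1 outside the brain, were at most 0.117 RPKM each (0 of 3 called), and Stab2 was 0.0619 to 0.116. Neutrophil genes had 0 of 8 called in any comparison, with group means of 3.70 to 7.88 RPKM summed. Erythroid genes, from blood left in the tissue, summed to 87.4 to 330 RPKM, and 0 of 5 were called. Choroid plexus (0 of 7 called), neuronal (0 of 5) and oligodendrocyte genes (0 of 4) did not pass the test in any comparison, while Aqp4 (1 of 4 astrocyte genes) and Cldn5 and Cdh5 (2 of 5 endothelial genes) rose over both genotypes.

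Further markers of border macrophages moved in part. Over both genotypes 4 of 16 rose in MCAO and 0 fell, against 3.43% of all genes called. The median log2 difference was 0.30. Those that rose were Siglec1 (sialoadhesin, 1.77), Tgfbi (a secreted matrix protein, 1.63), Dab2 (an endocytic adaptor, 0.87) and Hpgd (which breaks down prostaglandins, 0.63). Siglec1 went from 0.0787 ± 0.0957 to 0.481 ± 0.444 RPKM in Cort+/+ (SD, n = 3 and 3) and from 0.0815 ± 0.0455 to 0.688 ± 0.375 in Cort-/- (SD, n = 3 and 5). Within a genotype, limma called 0 of 16 in Cort+/+ and 1 of 16 in Cort-/-, against 0.0108% and 1.72% of all genes. Maf and Colec12 did not pass the test, and 6 of 16 genes (Cd209f, Cd209g, Cd209b, Timd4, Clec10a and Ccl24) stayed under 0.5 RPKM in all 14 libraries. No gene of the list was called between genotypes.

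The list of markers of CNS-associated macrophages that the study used, from published marker sets, has 50 genes and holds 6 of the 8 members. Of its other 44 genes, 21 rose over both genotypes and 0 fell, with a median log2 difference of 1.04. Of all genes 3.43% were called there. Among those called were Lgals1 (galectin-1, log2 difference 1.70), Adgre1 (the macrophage antigen F4/80, 1.59), Cd74 (the class II invariant chain, 1.36), Fcgr2b (1.34) and Aif1 (Iba1, 1.12). Most of those named are also carried by activated microglia or by macrophages from the blood. In Cort-/- 13 of the 44 rose by limma and in Cort+/+ 0, against 1.72% and 0.0108% of all genes. The medians were 1.21 in Cort-/- and 0.92 in Cort+/+, and 0 of 44 were called in the interaction. Between genotypes 0 of 44 were called in CL and 0 of 44 in MCAO, with medians of 0.06 and 0.30.

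Genes that act with the members were read by role, beside 3.43% of all genes called over both genotypes. Of 9 genes that handle haemoglobin and haem, 4 rose over both genotypes and 0 fell: Hmox1 (haem oxygenase-1, which opens the haem ring, log2 difference 1.33), Ftl1 (ferritin light chain, 0.65), Blvrb (0.36) and Blvra (0.20), both biliverdin reductases. Hmox1 went from 3.25 ± 0.770 to 10.4 ± 4.11 RPKM in Cort-/- (SD, n = 3 and 5), while Cd163 had a log2 difference of 0.07 there. Hp, which presents haemoglobin to Cd163, stood at 0.120 to 0.748 RPKM. Of 8 hyaluronan genes 3 rose and 0 fell over both genotypes, Cd44 (the main hyaluronan receptor of leukocytes and glia, 1.75), Hmmr (1.14) and the hyaluronidase Hyal1 (0.31), beside 0.39 for Lyve1, which was not called.

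Of 7 transglutaminase and fibrin genes tested 2 rose over both genotypes, Tgm1 (log2 difference 4.44, SE 0.41, limma adjusted p = 0.000444) and Tgm2 (0.85), whereas F13a1 had 0.45 and was not called. Tgm1 was 0.150 ± 0.227 RPKM in Cort+/+ CL and 4.80 ± 1.65 in Cort+/+ MCAO (SD, n = 3 and 3). The fibrinogen gene Fga was at most 0.0433 RPKM. Of 5 receptors for Pf4 only Itgam (an integrin of myeloid cells, 1.11) rose, and Cxcr3 was at most 0.0603 RPKM. None of 5 folate genes passed the test, Folr1 (0.34) and Slc19a1 (0.00) included. Of 5 genes listed with the growth factor Csf1, 2 rose, its receptor Csf1r (0.65) and Csf2rb (1.25). Csf2rb is not a receptor for Csf1. Csf1 itself had 0.50 (limma adjusted p = 0.137) and Il34 -0.02. Of 9 relatives of Mrc1 and other C-type lectins 2 rose, Clec7a (dectin-1, 2.25) and Mrc2 (0.42). Of 14 further Ms4a genes 1 rose, Ms4a6d (1.89), which lies in the same gene cluster as Ms4a7.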

How the data were processed

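Stranded polyA libraries were sequenced from the 2 brain hemispheres (CL and MCAO) of Cort+/+ and Cort-/- mice, with 14 libraries in 4 groups of 3 or 5. The authors aligned reads to GRCm39 with the reanalyzerGSE pipeline and GENCODE annotation and deposited RPKM values, 1 column per library, with replicates not pooled. How library sizes were scaled is not given in the sources used here. The study's own tests were run on read counts. The deposited RPKM are not counts, so the main test was limma 3.58.1 in R 4.3.3.

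Values were taken as log2(RPKM + 0.1), which understates the change of low genes. Genes above 0 in at least 2 libraries (46102 of 46904) entered a single fit over all 4 groups, with eBayes moderation that followed the mean level, and Benjamini-Hochberg adjustment over all genes at 0.05. The contrasts were MCAO against CL in each genotype and over both, Cort-/- against Cort+/+ in CL and in MCAO, and the interaction. "Rose" and "fell" mean an adjusted p under 0.05. Limma's p-values measure the spread between libraries, which the study states are independent biological replicates of each condition. CL and MCAO libraries may share animals, and the main fit took no account of this. Whole reads (tolerance 0.01 reads) were recovered from 100.0% of the 495656 values above 0. The annotated exon length of a gene was used where it gave whole reads. Otherwise the smallest whole numbers that give the deposited RPKM were taken.

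The 8 members and the marker lists were chosen with earlier results of these data known. Text names all members, the 3 genes of at least 1 RPKM most like each (Pearson r over 14 libraries), and from each list its 2 highest genes and up to 4 that were called, with partner lists named freely. Gp1bb, Ccl21a, Stab2 and the markers under 0.5 RPKM were named after their values were seen. A further gene of the microglial list is not reported here and was left out of its sums and counts. Promoter windows came from RefSeq, with 250 bases before each start. Gene positions are those of a GENCODE annotation of GRCm39. The test was checked on simulated data. Python 3.11.15, numpy 2.4.6, pandas 2.3.3, scipy 1.17.1 and matplotlib 3.10.9 were used. Alternatives covered the pseudocount, filters, scalings, the groups in the fit, library weights, replicate numbers as a block, and each library left out. limma voom on the recovered reads and reads thinned to the smallest library were chosen after seeing the data.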

Additional observations from a re-analysis of the deposited data

Results flagged for a closer look

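Within the Cort-/- MCAO group, the only one with more than 3 libraries, each of the 8 genes was examined for a library far from the others (Dixon's gap over range, critical value 0.71 for 5 samples). Library 1 stood apart for Ms4a7, at 0.778 RPKM with a gap of 0.716 of the range, and for Pf4, at 2.26 RPKM with a gap of 0.713. Chance alone flags about 1 in 20 groups, and both come from the same library and lie just past the critical value.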

How the results depend on the processing

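Log2 differences depend on few libraries and few reads, and a count of 0 called members does not show that the genes were alike. Over all alternatives run, 0 of 8 members were called in Cort+/+, between genotypes and in the interaction. The call of Stab1 in Cort-/- (1 of 8) became 0 with log2(RPKM + 1), with rescaling to TPM and with the replicate block, and leaving out single libraries gave 0 to 1. Over both genotypes the count of 1 became 0 under the replicate block alone, and stayed 1 with each library left out. Under the block Stab1 had a log2 difference of 1.41 over both genotypes (limma adjusted p = 0.133) and 1.15 in Cort-/- (limma adjusted p = 0.35). That block, the replicate number within each genotype, called 0 genes of all 46102 between hemispheres. CL and MCAO libraries of the same number within a genotype had deviations from their group means with r from -0.24 to 0.32. Deviations in such small groups cannot decide whether the numbers mark shared animals. The block turned the median interaction (-0.086) and that of Cd163 (-0.43), Lyve1 (-0.19), F13a1 (-0.50) and Stab1 (-0.51). With limma voom, chosen after seeing the data, 1415 genes were called in Cort-/- and 54 in Cort+/+, against 792 and 5; the cause was not tested. Those differences near 0 that changed sign are grouped by setting. In CL between genotypes, Folr2 was 0.033 with log2(RPKM + 0.01), 0.044 in TPM, 0.052 with library weights, 0.061 with limma voom and 0.063 with limma voom and a mean of at least 0.05 RPKM. Ms4a7 was 0.014 in TPM. With reads thinned to the smallest library Ms4a7 was 0.16, Pf4 0.099 and, in Cort+/+ between hemispheres, Cd163 -0.058 and Folr2 -0.059. Cd163 in Cort+/+ was -0.019 with log2(RPKM + 1) and -0.055 under quantile normalization, which gave -0.024 over both genotypes. The interaction of Cd163 was -0.037 with library weights. Leaving out 1 library at a time changed signs over these ranges. In Cort+/+ between hemispheres they were -0.013 to 0.46 for Mrc1, -0.25 to 0.40 for Cd163, -0.024 to 0.67 for Ms4a7 and -0.18 to 0.55 for Folr2. For Cd163 they were -0.041 to 0.20 in Cort-/- and -0.093 to 0.23 over both genotypes. In CL between genotypes they were -0.18 to 0.10 for Ms4a7, -0.50 to 0.23 for Folr2, -0.54 to 0.28 for Pf4 and -0.053 to 0.45 for Stab1. For the interaction they were -0.092 to 0.39 for Mrc1, -0.33 to 0.32 for Cd163, -0.11 to 0.33 for Lyve1, -0.30 to 0.53 for F13a1 and -0.19 to 0.43 for Stab1.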
